A study of Mus musculus with 9 samples.

Results

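This account covers 31 genes of the choroid plexus, the ependyma and motile cilia, which were taken by symbol from a table of 34714 genes and all found there. Of these, 16 are genes of the choroid plexus and 15 are genes of ependymal cells or of the motile cilium. Bulk RNA sequencing had been done on cortex of mice in 3 groups of 3 brains. The groups were mice that had EAE (experimental autoimmune encephalomyelitis, an induced immune attack on brain and spinal cord that models multiple sclerosis) and received Au18(L-NIBC)14, mice that had EAE without the agent, and naive mice. Au18(L-NIBC)14 is a cluster of gold atoms coated with N-isobutyryl-L-cysteine ligands, and the series title names the oligomerisation of ASC, an inflammasome adaptor, as its target. The sources used here give no strain, age, sex, way of inducing EAE, dose or collection day. The groups are called treated EAE, EAE and naive.

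The choroid plexus is a fringe of epithelium and vessels inside the brain ventricles that secretes cerebrospinal fluid, and it exports transthyretin and other carrier proteins into it. Ependymal cells line the same ventricles and move the fluid with motile cilia, whose core is built of doublet microtubules, dynein arms, radial spokes and a central pair. Neither tissue is part of the cortex, and some of these genes are also known from other cells of the brain.

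Total counts were between 26972179 and 45243553 per library. Of the 31 genes, 30 had enough counts to be tested, and Steap1 did not. The level of a gene is its count divided by the library total on the usual scale of CPM, with TMM factors of 0.98 to 1.02 between libraries. A count of 0 allows a level of up to 0.0663 to 0.111 CPM, which is 3 counts of a library's total and covers counting error only. This limit takes each count as 1 fragment and would be higher if 1 count stood for less. A gene is called changed where the adjusted p of edgeR's quasi-likelihood test over 18644 genes is under 0.05. Markers of cortical excitatory neurons summed to between 1571 and 2125 CPM over the 9 libraries, so the labelled tissue was present in each. The 9 markers summed to 2008, 2034 and 2125 CPM in treated EAE, 1818, 1571 and 1817 CPM in EAE and 1976, 1984 and 1963 CPM in naive cortex, and thus lay lower in each EAE library than in the other 6. Of the 9, all had a log2 fold change above 0 in treated EAE over EAE (median 0.32) and all below 0 in EAE over naive (median -0.39), while edgeR called 0 of them in either, with 3 and 2 at an unadjusted p under 0.05, against 15.1% and 16.4% of all tested genes, and 0 and 1 DESeq2 calls. The part of this difference in the results given here was not tested. In bulk samples fewer cells of a type and less RNA per cell cannot be told apart.

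One library stood apart for these genes. EAE replicate 1 was the highest of the 9 libraries for all 16 choroid plexus genes and for 13 of the 15 ependyma and cilia genes, against 8.71% of all tested genes. It exceeded the median of the other 8 libraries more than 4 times for 14 of the 16 choroid plexus genes and for none of the 15 ependyma and cilia genes. Only 55 of 18644 tested genes (0.295%) did so, and 13 of those 55 were tested choroid plexus members. The excess ran from 2.06 times for Enpp2 to 106 times for Ttr, with a median of 7.69 times over the choroid plexus genes. Over the ependyma and cilia genes it ran from 1.14 times for Rarres2 to 3.98 times for Tekt4, with a median of 1.91 times. Fold changes printed for single members in comparisons with EAE therefore have their value without it beside them.

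**Figure D1:**
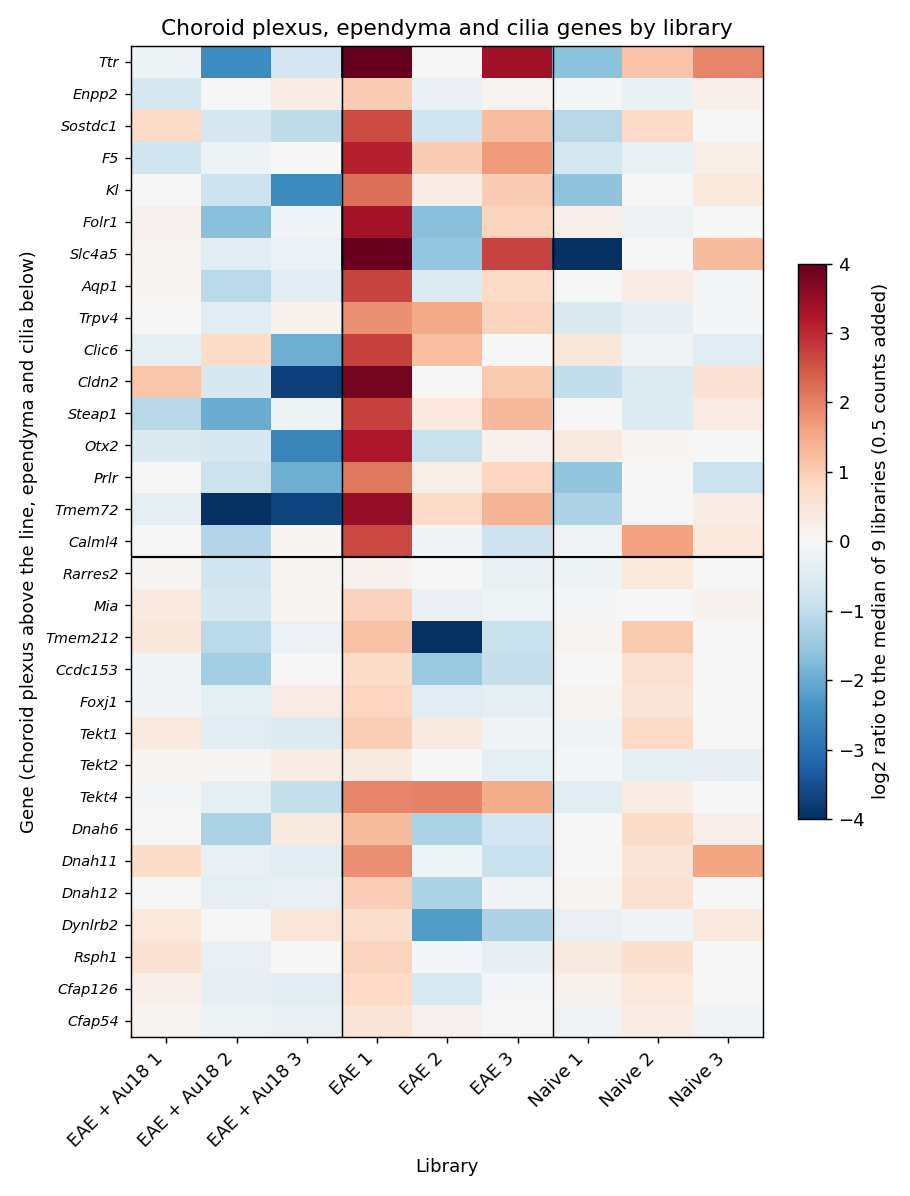
Heat map of the 31 genes (rows) in the 9 libraries (columns), coloured by the log2 ratio of the scaled level to the gene's median over the 9 libraries, with 0.5 counts added. The column of EAE replicate 1 is red for all 16 choroid plexus genes above the line, and Tekt4 is the cilia gene that is red in all 3 EAE libraries.

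Per kilobase of exon, the order of the genes differed between that library and the others. In EAE replicate 1 the 5 highest were Ttr (698 CPM per kb), Enpp2 (77.7), Clic6 (6.98), Foxj1 (3.82) and Rsph1 (3.31). By the median over the 9 libraries they were Enpp2 (38.2 CPM per kb), Ttr (7.03), Foxj1 (2.09), Rsph1 (1.79) and Rarres2 (1.39). By the median, Foxj1 and Rsph1 thus outranked all choroid plexus genes other than Enpp2 and Ttr.

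Among the secreted products of the choroid plexus, Ttr, which encodes transthyretin, the carrier of thyroxine and of retinol-binding protein, had 7.30, 1.45 and 4.85 CPM in treated EAE, 827, 8.34 and 85.2 CPM in EAE and 2.66, 18.6 and 32.3 CPM in naive cortex. The 3 treated libraries lay below all 3 EAE libraries, while EAE replicate 2 lay among the naive values. Ttr averaged 4.53 ± 2.94 CPM in treated EAE, 307 ± 452 in EAE and 17.9 ± 14.9 in naive cortex (SD, n = 3 each). The log2 fold change was -6.09 (SE 1.74, edgeR adjusted p = 0.174) for treated EAE over EAE and 4.12 (SE 1.56, adjusted p = 0.246) for EAE over naive, so neither passed. EAE replicate 1 alone held 83.7% of the Ttr CPM summed over the 9 libraries, and without it the values were -3.37 and 1.40.

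Kl, which encodes klotho, the co-receptor of the hormone FGF23, had 5.42, 3.03 and 0.918 CPM in treated EAE, 24.9, 6.59 and 10.97 CPM in EAE and 1.79, 5.35 and 7.34 CPM in naive cortex. All 3 EAE libraries were above the treated ones, and EAE overlapped with naive. The log2 fold change was -2.16 (SE 0.75, edgeR adjusted p = 0.236) for treated EAE over EAE and 1.57 (SE 0.73, adjusted p = 0.340) for EAE over naive, and without EAE replicate 1 the values were -1.48 and 0.88. F5, the gene of coagulation factor V, had 0.659, 0.995 and 1.14 CPM in treated EAE, 9.99, 2.33 and 3.75 CPM in EAE and 0.692, 0.953 and 1.34 CPM in naive cortex. Each EAE library was above all 6 others, yet neither test passed, the log2 fold change being -2.53 (SE 0.53, edgeR adjusted p = 0.0953) for treated EAE over EAE and 2.44 (SE 0.53, adjusted p = 0.0682) for EAE over naive. Without EAE replicate 1 the F5 values were -1.72 and 1.62.

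Sostdc1, a secreted antagonist of BMP and Wnt signals, had 1.196, 0.427 and 0.331 CPM in treated EAE, 4.31, 0.388 and 1.63 CPM in EAE and 0.313, 1.17 and 0.689 CPM in naive cortex, and all 3 groups overlapped. Enpp2 encodes autotaxin, the secreted enzyme that makes lysophosphatidic acid, and is known from oligodendrocytes as well as from the choroid plexus. It had 143, 221 and 271 CPM in treated EAE, 449, 182 and 240 CPM in EAE and 216, 182 and 253 CPM in naive cortex. Outside EAE replicate 1 its 8 values thus stayed between 143 and 271 CPM while Ttr varied between 1.45 and 85.2 CPM.

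Channels, transporters and junction proteins carry ions, water and folate between blood and fluid. Folr1, the folate receptor of the epithelium, had 0.635, 0.166 and 0.514 CPM in treated EAE, 5.74, 0.162 and 1.04 CPM in EAE and 0.648, 0.476 and 0.551 CPM in naive cortex. EAE replicate 1 was the highest and EAE replicate 2 the lowest library for this gene. Its log2 fold change was -2.41 (SE 1.02, edgeR adjusted p = 0.317) for treated EAE over EAE and 2.03 (SE 1.00, adjusted p = 0.361) for EAE over naive, and without EAE replicate 1 it was -0.46 and 0.088. Slc4a5, a sodium bicarbonate cotransporter, had 0.244, 0.166 and 0.184 CPM in treated EAE, 6.62, 0.0646 and 1.53 CPM in EAE and 0, 0.220 and 0.551 CPM in naive cortex. EAE replicate 2 held only 2 counts of it, under the level that a count of 0 allows. The water channel Aqp1 followed with 0.927, 0.403 and 0.624 CPM in treated EAE, 5.74, 0.582 and 1.49 CPM in EAE and 0.871, 1.06 and 0.827 CPM in naive cortex. For both genes EAE replicates 1 and 3 were the 2 highest libraries and EAE replicate 2 was below 2 or more of the 3 naive ones.

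The tight junction gene Cldn2, whose claudin forms cation pores, had 0.513, 0.142 and 0 CPM in treated EAE, 3.44, 0.226 and 0.486 CPM in EAE and 0.112, 0.147 and 0.344 CPM in naive cortex. Steap1, a membrane protein gene that was too low to test, had 0.0976, 0.0474 and 0.184 CPM in treated EAE, 1.56, 0.291 and 0.555 CPM in EAE and 0.223, 0.147 and 0.276 CPM in naive cortex, so that its EAE libraries were above the 6 others. Clic6, an intracellular chloride channel gene, had 3.10, 6.76 and 1.03 CPM in treated EAE, 27.3, 9.28 and 4.06 CPM in EAE and 5.61, 3.70 and 2.997 CPM in naive cortex. Its second highest library was EAE replicate 2, not EAE replicate 3.

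Clic6 was high in the libraries that were high in striatal markers, a pattern seen after its values were known. The 9 genes of a striatum list summed to 401, 1175 and 413 CPM in treated EAE, 1055, 1542 and 289 CPM in EAE and 1828, 552 and 276 CPM in naive cortex. The 4 libraries highest in Clic6 were also the 4 highest in these markers, although in another order. Their part in the Clic6 values was not tested.

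Trpv4, a calcium-permeable cation channel that opens on osmotic swelling and warmth and is known from astrocytes too, was the choroid plexus gene that passed a test. It had 1.85, 1.35 and 2.02 CPM in treated EAE, 6.55, 5.30 and 3.44 CPM in EAE and 1.23, 1.47 and 1.79 CPM in naive cortex. All 3 EAE libraries were above the other 6, and EAE replicate 1 exceeded EAE replicate 2 by little. Trpv4 averaged 5.10 ± 1.57 CPM in EAE and 1.495 ± 0.282 CPM in naive cortex (SD, n = 3 each), and rose by 1.78 on the log2 scale (SE 0.28, edgeR adjusted p = 0.0280). In treated EAE it averaged 1.74 ± 0.35 CPM, and its log2 fold change over EAE was -1.55 (SE 0.28, adjusted p = 0.0727), or -1.34 without EAE replicate 1. Without EAE replicate 1 the rise over naive was 1.56 (SE 0.29, adjusted p = 0.0428), and it passed in 5 of the 9 fits that left out 1 library (adjusted p 0.0309 to 0.135). The call was lost without EAE replicate 2 and without any 1 of the naive libraries.

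Gjb6, a connexin gene of astrocytes and the one called gene of the lists of other cell types, had the same order of groups. It had 44.96, 48.0 and 56.2 CPM in treated EAE, 85.1, 101 and 103 CPM in EAE and 30.7, 38.5 and 46.2 CPM in naive cortex. Its log2 fold change was -0.96 (SE 0.15, edgeR adjusted p = 0.0457) for treated EAE over EAE and 1.33 (adjusted p = 0.0114) for EAE over naive. The summed level of all 7 astrocyte markers was 4359, 4948 and 6309 CPM in treated EAE, 4992, 7142 and 6094 CPM in EAE and 4959, 5594 and 5562 CPM in naive cortex, with overlap between all groups. Slc1a2 made up most of that sum, with 2474 to 4255 CPM. Gfap, another of the 7, had 262, 627 and 401 CPM in EAE. It had 175, 235 and 159 CPM in treated EAE and 99.6, 173 and 210 CPM in naive cortex. Its log2 fold change was -1.18 for treated EAE over EAE (edgeR adjusted p = 0.19). For EAE over naive it was 1.42 (adjusted p = 0.11), and DESeq2 called it there. Of the 7, 5 were below 0 in treated EAE over EAE and 4 above 0 in EAE over naive. Whether astrocytes contributed to the Trpv4 values was not tested.

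Otx2, the homeobox transcription factor that the choroid plexus epithelium needs for its formation and upkeep, had 0.366, 0.356 and 0.0734 CPM in treated EAE, 5.32, 0.291 and 0.625 CPM in EAE and 0.715, 0.586 and 0.551 CPM in naive cortex. Only EAE replicate 1 was above the naive libraries, and the 3 treated libraries were all below them. Its log2 fold change was -2.89 (SE 1.02, edgeR adjusted p = 0.235) for treated EAE over EAE, 1.74 (SE 0.95, adjusted p = 0.413) for EAE over naive and -1.15 (SE 1.05, adjusted p = 1.00) for treated EAE over naive. Without EAE replicate 1 these values were -0.72, -0.44 and -1.16.

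Prlr, the prolactin receptor gene, had 2.22, 1.21 and 0.551 CPM in treated EAE, 9.57, 2.62 and 4.03 CPM in EAE and 0.737, 2.20 and 1.21 CPM in naive cortex. Tmem72, which encodes a membrane protein, had 0.171, 0 and 0 CPM in treated EAE, 2.72, 0.388 and 0.590 CPM in EAE and 0.0893, 0.220 and 0.276 CPM in naive cortex. In both genes each EAE library was above all 6 others, though EAE replicate 2 exceeded the highest of them by little. Calml4, a calmodulin-like gene, had 0.390, 0.166 and 0.404 CPM in treated EAE, 2.497, 0.356 and 0.208 CPM in EAE and 0.357, 1.21 and 0.517 CPM in naive cortex, so that only EAE replicate 1 was above the naive libraries.

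**Figure D2:**
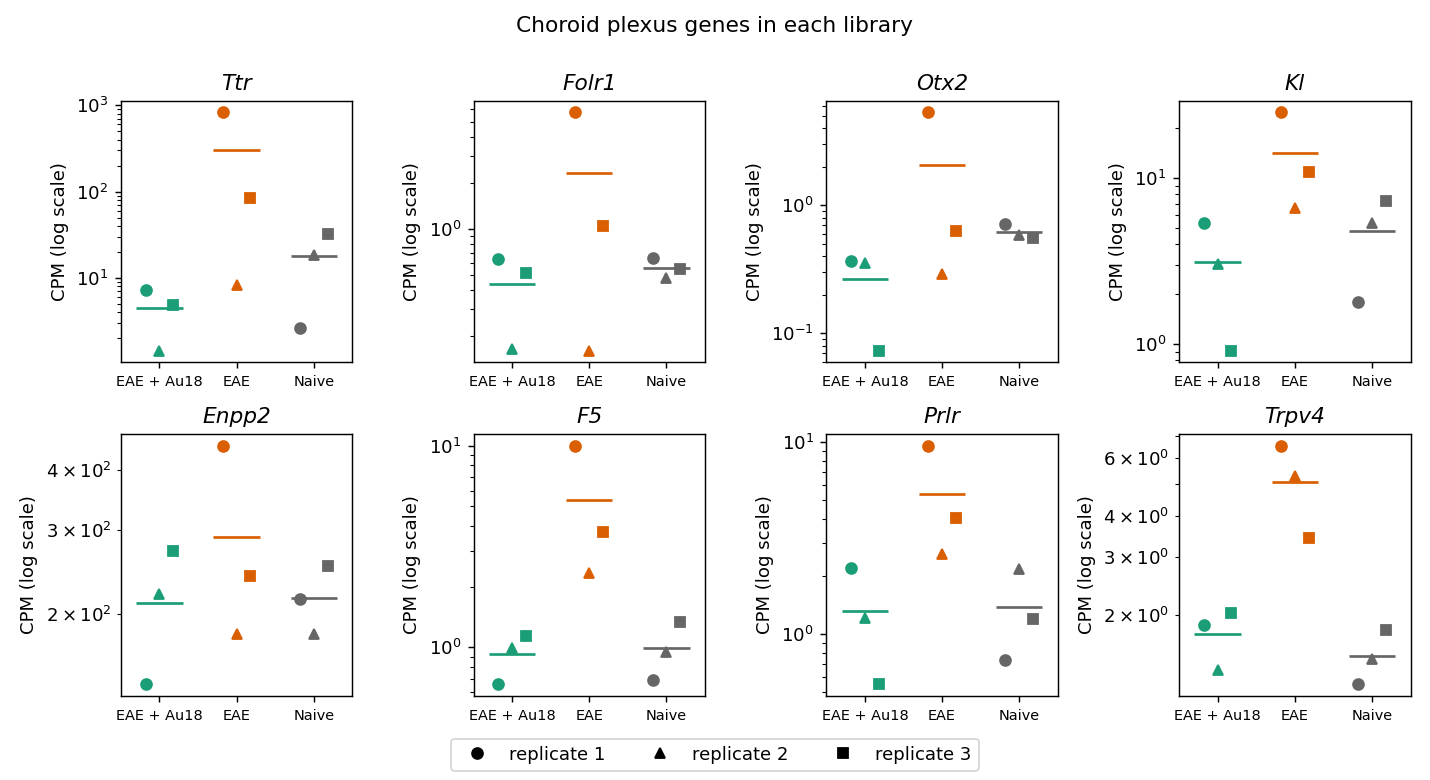
Level of 8 choroid plexus genes in each library (CPM, log scale), with a point per library, its shape giving the replicate number, and a line at the group mean. EAE replicate 1 is the highest point in each panel, and only for F5, Prlr and Trpv4 do all 3 EAE libraries lie above both other groups.

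EAE replicate 3 was above the 7 libraries other than EAE replicate 1 for 10 of the 16 choroid plexus genes, but by different shares. Its excess over the median of those 7 libraries was 9.50% of the excess of EAE replicate 1 for Ttr, 10.1% for Folr1, 10.3% for Cldn2, 10.5% for Enpp2 and 13.6% for Aqp1. The share was 16.4% for Tmem72, 20.9% for Slc4a5, 27.1% for Steap1, 28.7% for Kl, 30.6% for F5, 31.01% for Sostdc1, 33.7% for Prlr and 34.6% for Trpv4. It was 5.23% for Otx2, 1.53% for Clic6 and -8.65% for Calml4. No error is given for these shares, and some rest on few counts, such as 14 of Cldn2 and 18 of Otx2 in EAE replicate 3. The genes did not keep 1 ratio to Ttr across libraries. Per 1000 Ttr counts there were 87.0, 115 and 106 Folr1 counts in treated EAE, 6.94, 19.4 and 12.2 in EAE and 244, 25.6 and 17.0 in naive cortex. The value of naive replicate 1 rests on 29 Folr1 and 119 Ttr counts. For Kl the same ratio was 742, 2098 and 189 in treated EAE, 30.1, 791 and 129 in EAE and 672, 288 and 227 in naive cortex.

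The comparison of treated EAE with EAE asks what the agent changed in diseased cortex. All 15 tested choroid plexus genes had a log2 fold change below 0, with a median of -2.16 against 0.00 over all tested genes. None of the 15 passed edgeR's test, which called 24 genes (0.129%) lower among all tested genes, while 11 of 15 had an unadjusted p under 0.05 against 15.1% of all tested genes. DESeq2 called 6 of the same 15, and Steap1 besides, against 3.69% of all genes it tested. The groups did not overlap, with treated EAE lower, for 7 of the 16 choroid plexus genes (Ttr, F5, Kl, Trpv4, Steap1, Prlr and Tmem72), against 9.28% of tested genes. Steap1 was not tested, so it lies outside that share. Tmem72 had enough counts to be tested only through its EAE libraries, so its place in these counts lends no support. Without EAE replicate 1 the median was -0.87, with 14 of 15 genes below 0.

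The comparison of EAE with naive cortex asks what the disease changed, and it uses the same 3 EAE libraries. All 15 tested choroid plexus genes were above 0, with a median log2 fold change of 1.78 against -0.01 over all tested genes. Trpv4 was the only one of them called, where 137 genes (0.735%) were called higher in the whole table, and 7 of 15 had an unadjusted p under 0.05 against 16.4% of all tested genes. The EAE libraries were above all naive ones for 5 of the 16 choroid plexus genes (F5, Trpv4, Steap1, Prlr and Tmem72), against 12.2% of tested genes. The same limits hold here for Steap1 and Tmem72. Without EAE replicate 1 the median was 0.85, with 12 of 15 genes above 0.

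Treated EAE was also set against naive cortex, and edgeR called 0 of the 30 tested members and 0% of all genes between them. The EAE libraries still enter this fit through its shared estimate of the spread. Without EAE replicate 1 the SE fell from 1.05 to 0.52 for Otx2 and from 1.56 to 1.16 for Ttr. EdgeR again called 0 genes in that fit, and 0 in the fit of only the 2 groups. No member had an unadjusted p under 0.05, against 1.71% of all tested genes, and DESeq2 called 0 members. The median log2 fold change was -0.25 over the choroid plexus genes and -0.34 over the ependyma and cilia genes. Otx2 was lower in each treated library than in any naive one, which held for 2.73% of tested genes, and Tekt2 was higher, which held for 3.51%.

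**Figure D3:**
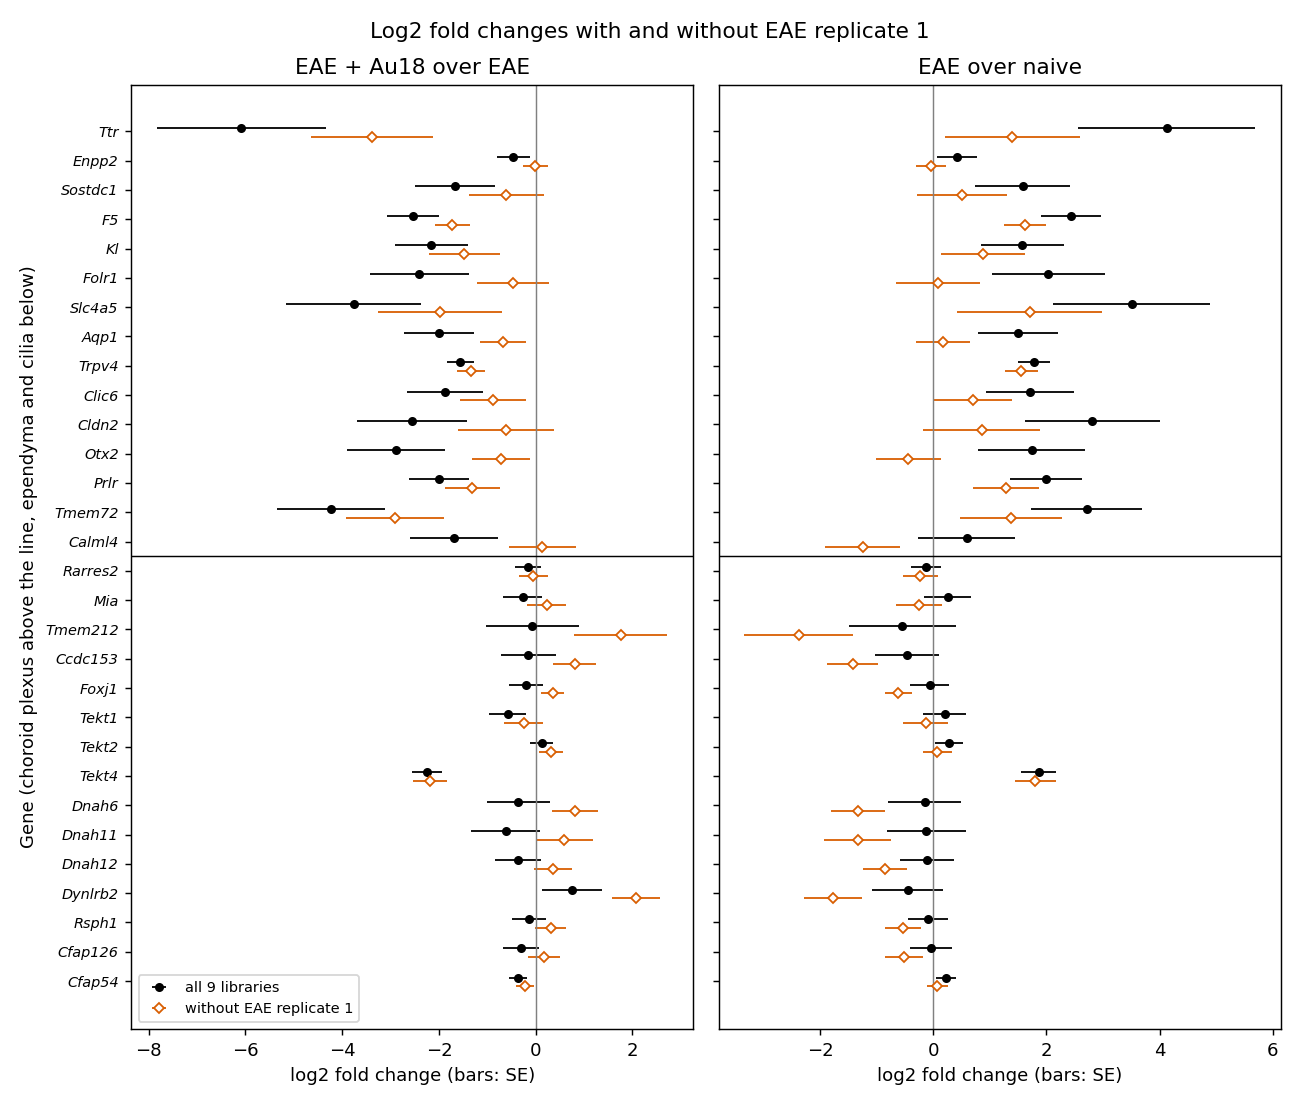
Log2 fold change with its SE for the 30 tested genes, in treated EAE over EAE (left) and EAE over naive (right), from all 9 libraries (black) and without EAE replicate 1 (open diamonds). The choroid plexus medians of -2.16 and 1.78 move to -0.87 and 0.85 without that library, and the cilia medians of -0.27 and -0.09 move to 0.32 and -0.54.

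Ependyma and cilia genes differed from the choroid plexus genes in the order of the libraries as well as in size. Naive replicate 2 was their second highest library in 9 of 15 cases and the highest naive library in 11 of 15, against 32.3% of all tested genes. EAE replicate 3 was the second highest for 10 of the 16 choroid plexus genes and for none of the 15 ependyma and cilia genes. Beyond EAE replicate 1, the library that most often came second thus differed between the kinds of gene. How much of either tissue each library held was not tested.

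Foxj1, the forkhead factor that switches on the motile cilium programme, had 5.03, 4.27 and 6.83 CPM in treated EAE, 10.02, 4.07 and 4.24 CPM in EAE and 5.94, 7.77 and 5.48 CPM in naive cortex. EAE replicate 1 was the highest library and EAE replicates 2 and 3 were the 2 lowest. Its log2 fold change was -0.19 (SE 0.35, edgeR adjusted p = 0.850) for treated EAE over EAE and -0.06 (SE 0.35, adjusted p = 0.957, 95% interval -0.85 to 0.72) for EAE over naive. Without EAE replicate 1 the values were 0.36, with the sign turned, and -0.62, and neither passed. Ccdc153, a coiled-coil protein gene typical of ependymal cells, followed Foxj1 with 2.03, 0.853 and 2.24 CPM in treated EAE, 3.70, 0.776 and 1.15 CPM in EAE and 2.21, 3.37 and 2.20 CPM in naive cortex. Tmem212, another ependymal membrane protein gene, had 0.903, 0.308 and 0.551 CPM in treated EAE, 1.49, 0 and 0.347 CPM in EAE and 0.715, 1.36 and 0.654 CPM in naive cortex. For both, EAE replicate 2 was the lowest of the 9 libraries.

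Rarres2, which encodes the chemoattractant chemerin, had 3.81, 2.13 and 3.82 CPM in treated EAE, 4.15, 3.62 and 3.02 CPM in EAE and 3.17, 4.91 and 3.69 CPM in naive cortex. Naive replicate 2 was its highest library, and its log2 fold change was -0.15 (SE 0.27, edgeR adjusted p = 0.843) for treated EAE over EAE and -0.12 (SE 0.27, adjusted p = 0.877) for EAE over naive, or -0.044 and -0.23 without EAE replicate 1. Mia, a small secreted protein gene, stayed between 0.379 and 1.14 CPM. The exons of Rarres2 overlap those of Lrrc61 on the opposite strand over 33.6% of their length, and those of Mia overlap Gm21983 over 41.2%, so that their reads may be shared.

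EAE replicate 1 was the highest library for each of the motor and spoke genes of the axoneme among the members. Dnah6, a heavy chain of the inner dynein arms, had 2.20, 0.901 and 2.79 CPM in treated EAE, 5.25, 0.905 and 1.28 CPM in EAE and 2.17, 3.63 and 2.51 CPM in naive cortex. Dnah12, another inner arm heavy chain, had 1.29, 0.972 and 1.03 CPM in treated EAE, 2.56, 0.517 and 1.18 CPM in EAE and 1.38, 1.94 and 1.27 CPM in naive cortex. Dnah11, a heavy chain of the outer arms, had 1.54, 0.735 and 0.661 CPM in treated EAE, 3.24, 0.808 and 0.486 CPM in EAE and 0.916, 1.32 and 2.76 CPM in naive cortex. In all 3 the EAE group held the highest and the lowest of the 6 EAE and naive libraries.

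Dynlrb2, a dynein light chain of the roadblock family, was low throughout, with 0.708, 0.521 and 0.734 CPM in treated EAE, 0.843, 0.0970 and 0.208 CPM in EAE and 0.424, 0.476 and 0.689 CPM in naive cortex. EAE replicates 2 and 3 held only 3 and 6 counts of it. Rsph1, a protein of the radial spoke head, had 3.66, 1.99 and 2.46 CPM in treated EAE, 4.54, 2.39 and 1.94 CPM in EAE and 3.19, 3.85 and 2.45 CPM in naive cortex. Cfap126, which positions basal bodies, stayed between 0.679 and 1.82 CPM, and Cfap54, a central pair protein with expression in all libraries, stayed between 8.04 and 14.1 CPM.

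Tektins are filament proteins inside the doublet microtubules, and the 3 tektin genes among the members differed in the order of their groups. Tekt1 had 1.88, 1.04 and 0.992 CPM in treated EAE, 2.79, 1.81 and 1.28 CPM in EAE and 1.32, 2.42 and 1.41 CPM in naive cortex, with overlap between all groups. Tekt2 had 1.83, 1.80 and 2.17 CPM in treated EAE, 2.24, 1.75 and 1.32 CPM in EAE and 1.68, 1.32 and 1.38 CPM in naive cortex. Its treated libraries were above the naive ones, though the log2 fold change was 0.40 (SE 0.24, edgeR adjusted p = 1.00). Exons of Tekt2 overlap Gm12945 on the opposite strand over 20.8% of their length.

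Tekt4 was the gene called in both comparisons that involve EAE. It had 0.635, 0.498 and 0.331 CPM in treated EAE, 2.56, 2.62 and 1.87 CPM in EAE and 0.491, 0.806 and 0.654 CPM in naive cortex. These levels rest on 26, 21 and 9 counts in treated EAE, 79, 81 and 54 counts in EAE and 22, 22 and 19 counts in naive cortex. All 3 EAE libraries lay above the other 6, and EAE replicate 2, the lowest library for 6 of the 15 ependyma and cilia genes, was here the highest. Tekt4 averaged 0.488 ± 0.152 CPM in treated EAE, 2.35 ± 0.41 CPM in EAE and 0.651 ± 0.157 CPM in naive cortex (SD, n = 3 each). In treated EAE it fell by 2.24 on the log2 scale (SE 0.31, edgeR adjusted p = 0.0365) relative to EAE, and in EAE it rose by 1.87 (SE 0.31, adjusted p = 0.0295) relative to naive cortex, whereas treated EAE over naive gave -0.37 (SE 0.33, adjusted p = 1.00). Among all tested genes, 0.22% were called in the first of these comparisons and 0.987% in the second, and both tests rest on the same EAE libraries.

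The Tekt4 calls lie close to the threshold. For treated EAE over EAE the call was lost in each of the 9 fits without 1 library (adjusted p 0.0518 to 0.150) and in the fit of those 2 groups alone with the replicate number as a block (adjusted p = 0.0604), with a log2 fold change between -2.48 and -2.05 throughout. For EAE over naive it held in 2 of 9 such fits, those without treated replicate 1 or 3 (adjusted p 0.0279 to 0.145 over the 9), and without EAE replicate 1 the values were -2.18 (adjusted p = 0.0578) and 1.81 (adjusted p = 0.0512).

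**Figure D4:**
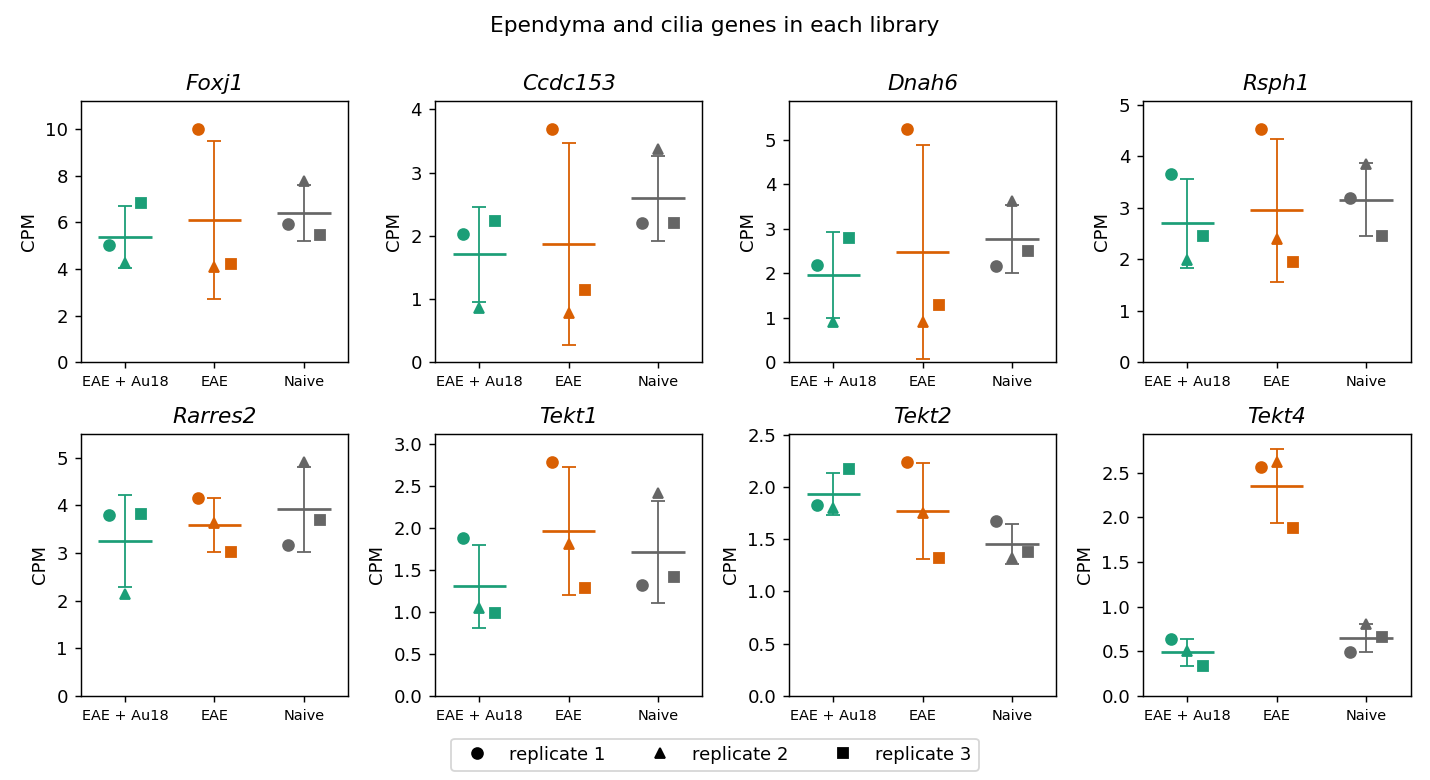
Level of 8 ependyma and cilia genes in each library (CPM, axis from 0), with a point per library, its shape giving the replicate number, and the group mean with its SD. In Tekt4 the 3 EAE libraries lie at 1.87 to 2.62 CPM, above the other 6, while in Foxj1, Ccdc153 and Dnah6 EAE replicates 2 and 3 lie below all naive libraries.

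The upstream sequences of the called genes are shown beside those of a pair of cilia genes that hold an X-box, the site of the RFX factors that switch on cilium genes together with Foxj1. They are the 250 bases before a transcription start in RefSeq for GRCm38.p6, with the X-box in capitals.
Tekt4: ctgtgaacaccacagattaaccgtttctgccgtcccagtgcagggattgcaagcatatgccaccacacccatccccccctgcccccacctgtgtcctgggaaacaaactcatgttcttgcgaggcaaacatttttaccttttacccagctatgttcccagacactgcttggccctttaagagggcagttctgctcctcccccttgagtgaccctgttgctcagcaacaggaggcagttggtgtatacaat
Trpv4: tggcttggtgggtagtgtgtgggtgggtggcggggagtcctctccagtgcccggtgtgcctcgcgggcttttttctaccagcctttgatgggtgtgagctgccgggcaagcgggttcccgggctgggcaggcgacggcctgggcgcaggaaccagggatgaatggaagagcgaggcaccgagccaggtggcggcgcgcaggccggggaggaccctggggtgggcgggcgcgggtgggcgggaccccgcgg
Tekt2: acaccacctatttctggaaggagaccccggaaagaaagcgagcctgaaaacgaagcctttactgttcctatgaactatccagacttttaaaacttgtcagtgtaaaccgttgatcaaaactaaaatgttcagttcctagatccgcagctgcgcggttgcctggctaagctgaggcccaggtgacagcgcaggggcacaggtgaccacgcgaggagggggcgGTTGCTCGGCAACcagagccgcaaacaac
Dynlrb2: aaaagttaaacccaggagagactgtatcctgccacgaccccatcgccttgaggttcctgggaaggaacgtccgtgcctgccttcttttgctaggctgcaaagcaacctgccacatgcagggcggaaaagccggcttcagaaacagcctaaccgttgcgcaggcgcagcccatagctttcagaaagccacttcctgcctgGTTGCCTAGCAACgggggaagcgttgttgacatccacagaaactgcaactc
These lie at chr17:25471340-25471589 (plus strand), chr5:114658422-114658671 (minus strand), chr4:126325689-126325938 (minus strand) and chr8:116504765-116505014 (plus strand), and each is printed in the direction of its gene. The Tekt4 window lies inside the span that GENCODE M21 gives that gene (chromosome 17, 25454615 to 25476602), so it belongs to one of several possible starts. The Dynlrb2 window runs past the start that GENCODE M21 gives that gene (chromosome 8, 116504974), and its X-box spans that start. In a check against GENCODE transcripts, the sequence after the start matched in the gene's direction for Tekt4 and Trpv4. It matched in neither direction for the printed Dynlrb2 and Tekt2 windows, though other Tekt2 windows matched in the gene's direction. The X-box stands at positions -29 to -17 from the start in Tekt2, read on the opposite strand, and at -51 to -39 in Dynlrb2. No exact match to the searched motifs was found in the Tekt4 or Trpv4 window. With 1 letter of the X-box allowed to differ, a search added after the windows were seen, the Tekt4 window held gttgctcagcaac at -36 to -24, and the Trpv4 window held none.

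Upstream windows were at hand for 22 of the 31 genes, 11 of each kind, in 32 windows. An X-box was in 3 of 16 windows of the ependyma and cilia genes (18.8%), of which 2 were overlapping Tekt2 windows with the same site. It was in 1 of 16 windows of the choroid plexus genes, that of Steap1, and in 424 of 32851 windows of all genes (1.29%). With 1 letter allowed to differ it was in 7 of 16 ependyma and cilia windows, the same 2 overlapping Tekt2 windows among them, in 1 of 16 choroid plexus windows and in 3049 of 32851 windows of all genes (9.28%). The OTX core TAATCC was in 1 of 16 windows of either kind, Otx2 itself and Dnah11, against 6.25% of all windows. The forkhead core TGTTTAC was in 1 choroid plexus window, that of Prlr, and in none of the ependyma and cilia windows, against 3.17% of all. Both strands were searched, and a match is a description of letters only.

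Other genes of the choroid plexus, 29 tested genes of a list that holds no member, had fold changes mostly on the same side of 0 and smaller ones. In treated EAE over EAE 28 of 29 were below 0 with a median log2 fold change of -0.68, and in EAE over naive 27 of 29 were above 0 with a median of 0.64. Both medians include EAE replicate 1, and their values without it are not given. The list summed to 359, 299 and 301 CPM in treated EAE, 556, 407 and 340 CPM in EAE and 287, 334 and 311 CPM in naive cortex. Of the 55 genes over 4 times in EAE replicate 1, 6 were in this list. EdgeR called 0 of them in either comparison, while 9 of 29 and 10 of 29 had an unadjusted p under 0.05, against 15.1% and 16.4% of all tested genes. DESeq2 called 3 in each, against 3.69% and 5.59% of the genes it tested. Kcne2, a potassium channel subunit of the epithelium, had 0.415, 0.261 and 0.147 CPM in treated EAE, 3.92, 0.646 and 0.833 CPM in EAE and 0.313, 0.440 and 0.482 CPM in naive cortex. Trpm3, a cation channel that neurons also express, had 77.9, 63.1 and 69.9 CPM in treated EAE, 123, 102 and 101 CPM in EAE and 46.3, 81.0 and 73.8 CPM in naive cortex. In both genes all 3 EAE libraries were above the other 6, with edgeR adjusted p of 0.148 and 0.180 for treated EAE over EAE and 0.169 and 0.115 for EAE over naive. The other genes among the 4 of smallest p in either comparison were Ecrg4, Slc39a4, Abca4 and Cgnl1. In each of these an EAE library lay below a treated or naive one.

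Other genes of the motile cilium had medians near 0. Of 69 tested genes from lists of regulators, axonemal dyneins, assembly factors, spoke and central pair proteins and doublet proteins, edgeR called 0 in treated EAE over EAE, with 5 at an unadjusted p under 0.05, 1 DESeq2 call and a median log2 fold change of -0.06. In EAE over naive edgeR called 0, with 5 at an unadjusted p under 0.05, 0 DESeq2 calls and a median of -0.10. Among all tested genes 15.1% and 16.4% had such a p in these comparisons. DESeq2 called 3.69% and 5.59% of the genes it tested. Ccdc65, a subunit of the nexin link, was the gene of these lists that DESeq2 called. It had 8.62, 7.42 and 6.57 CPM in treated EAE, 5.25, 3.14 and 5.07 CPM in EAE and 6.46, 6.34 and 5.89 CPM in naive cortex, with edgeR log2 fold changes of 0.75 (SE 0.20, adjusted p = 0.145) for treated EAE over EAE and -0.47 (SE 0.20, adjusted p = 0.279) for EAE over naive. Its EAE libraries were the lowest of the 9, the reverse of Tekt4.

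Genes of intraflagellar transport, which builds both motile and immotile cilia, summed to 1121, 1096 and 1001 CPM in treated EAE, 995, 953 and 969 CPM in EAE and 1076, 1057 and 1085 CPM in naive cortex. Every EAE library was thus below the other 6, though EAE replicate 1 at 995 CPM was close to treated replicate 3 at 1001 CPM. Kifap3, with 226 to 317 CPM, and Kif3a, with 176 to 217 CPM, made up much of that sum. EdgeR called 0 of the 18 in both comparisons, with 3 and 4 at an unadjusted p under 0.05, against 15.1% and 16.4% of all tested genes, and 0 and 1 DESeq2 calls. The cortical excitatory neuron markers were also lower in every EAE library than in the other 6, and their part in this order was not tested. Ift52, a core subunit of the transport particle, was at 0.31 on the log2 fold change scale (SE 0.08, adjusted p = 0.148) for treated EAE over EAE and -0.36 (SE 0.08, adjusted p = 0.0775) for EAE over naive.

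Markers of tissues that adjoin the ventricles or the cortex varied between libraries within each group. The 8 genes of a hippocampus list summed to 123, 47.4 and 51.2 CPM in treated EAE, 116, 46.3 and 115 CPM in EAE and 53.8, 89.4 and 92.8 CPM in naive cortex. EAE replicates 1 and 3, which were high in choroid plexus genes, were high here too, but treated replicate 1, which was the highest, had 7.30 CPM of Ttr. The 13 leptomeningeal fibroblast genes summed to 256, 144 and 65.0 CPM in treated EAE, 240, 358 and 118 CPM in EAE and 94.1, 116 and 147 CPM in naive cortex. EAE replicate 2 was the highest there and for 6 border macrophage genes, with 30.4 CPM against 3.89 to 11.04 CPM in the other libraries. Between groups, 12 of 13 leptomeningeal genes were above 0 in EAE over naive (median log2 fold change 0.91) and 10 of 13 below 0 in treated EAE over EAE (median -0.23). Of the border macrophage genes, 6 of 6 were above 0 in EAE over naive (median 0.88) and 5 of 6 below 0 in treated EAE over EAE (median -0.89), the same signs as most choroid plexus genes. EdgeR called 0 genes of either list in both comparisons. In treated EAE over EAE 0 leptomeningeal genes and 1 border macrophage gene had an unadjusted p under 0.05, against 15.1% of all tested genes. In EAE over naive 3 and 2 had one, against 16.4%. DESeq2 called F13a1 of the border macrophage list in both comparisons and 0 leptomeningeal genes, against 3.69% and 5.59% of the genes it tested. The part of these tissues in the results above was not tested.

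**Figure D5:**
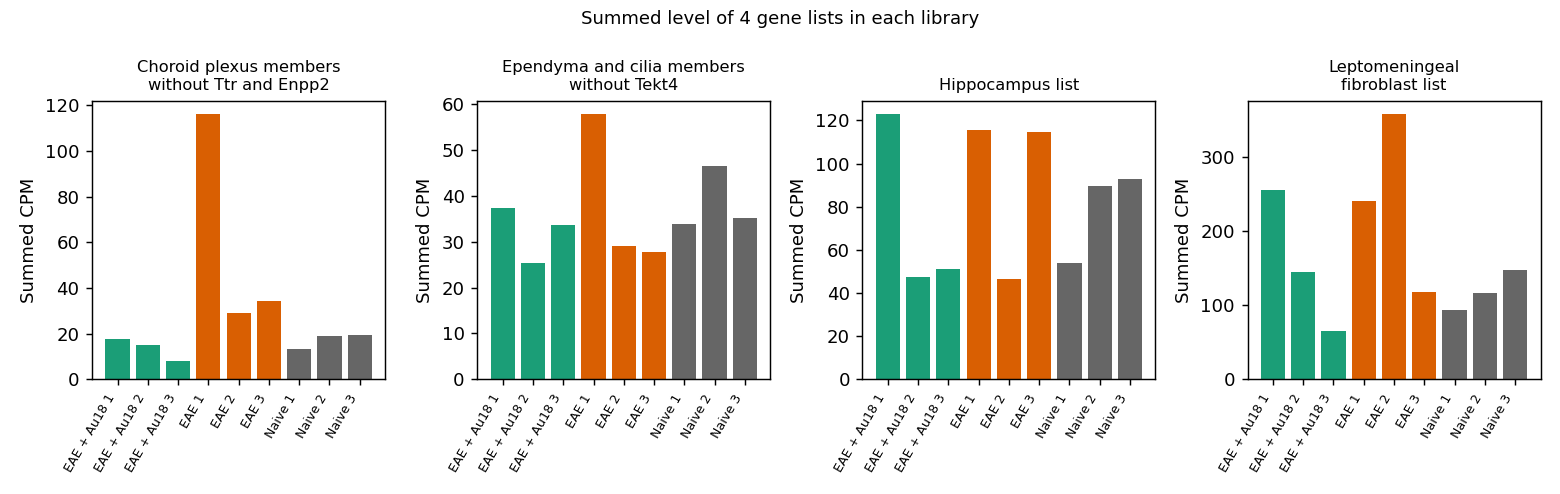
Summed level (CPM, axis from 0) of 4 gene lists in each of the 9 libraries, coloured by group. The 14 choroid plexus members other than Ttr and Enpp2 sum to 116 CPM in EAE replicate 1 and to 28.9 and 34.4 CPM in EAE replicates 2 and 3, above the 7.97 to 19.3 CPM of the other 6, while the remaining lists have another order of libraries.

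The genes most like Ttr in their pattern over the 9 libraries were sought among all tested genes, by the root mean square difference of log2 levels after each gene's mean was taken away. Among the members, Slc4a5 (1.17) and Tmem72 (1.31) were the nearest. The 10 nearest of the other genes were Dsp (1.48), Prr32 (1.64), Kcne2 (1.68), C1ql2 (1.70), Ecrg4 (1.71), Lct (1.90), Gm6999, Krt2, Best3 and Slc9a4 (1.91 to 1.93), and 7 of these 10 were also found with unscaled CPM and another pseudocount. Not all of them were highest in EAE replicate 1 as Ttr was. Krt2 and Slc9a4 were highest in treated replicate 1 (4.25 and 5.27 CPM), and Lct was highest in EAE replicate 3 (10.2 CPM). Ecrg4, which encodes a secreted peptide precursor of the choroid plexus, had 0.415, 0.403 and 0.661 CPM in treated EAE, 7.56, 0.485 and 1.11 CPM in EAE and 0.849, 0.586 and 1.21 CPM in naive cortex.

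Dsp, the desmosome gene desmoplakin, and C1ql2, a secreted synapse protein gene of dentate granule cells, are in the hippocampus list. Dsp had 1.37, 0.0948 and 0 CPM in treated EAE, 8.27, 0.743 and 6.56 CPM in EAE and 0.380, 0.660 and 4.27 CPM in naive cortex. C1ql2 had 7.57, 1.04 and 1.07 CPM in treated EAE, 10.5, 1.84 and 11.6 CPM in EAE and 0.625, 2.13 and 7.78 CPM in naive cortex. Both were nearly as high in EAE replicate 3 as in EAE replicate 1 or higher, whereas Ttr was at 85.2 and 827 CPM in those libraries.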

How the data were processed

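RNA of mouse cortex had been sequenced from 9 brains, 3 per group. The authors deposited 1 table of raw counts per gene symbol. The submitters' processing notes name FastQC 0.11.8, fastp and the genome build mm10, and the series' design text adds Hisat2 for alignment and bowtie2 for quantification. The sources used here do not state the annotation, the strand setting or the options of the counting. Columns were matched to samples by title, and 9 columns that match no sample used here were left out. Of 34714 genes, 7089 were at 0 in all 9 libraries. In each library genes with 2 counts outnumbered genes with 1 count 3.80 to 4.43 times, so 1 count may stand for less than 1 fragment. Libraries of a group differed by 16.0 to 53.4 in chi-square per degree of freedom, and none was a copy.

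The tests were run in edgeR 4.0.16 under R 4.3.3, with filterByExpr, TMM factors, robust glmQLFit and glmQLFTest on all 9 libraries, which left 6 residual degrees of freedom. Benjamini-Hochberg adjustment took in all 18644 tested genes at a threshold of 0.05, and p-values measure only the spread between these samples. The SE is the absolute log2 fold change over the square root of F. DESeq2 1.42.0, RLE factors, no filter, fits of only 2 groups, a replicate block, Ttr as a covariate and leaving out each library were alternatives. In simulated EAE and naive libraries the fit recovered 52% of genes changed by a factor of 2 and 80% of those changed by a factor of 4, with 7.04% false among 142 calls. The changed genes were drawn at random from all tested genes, and no simulated library stood apart. These shares therefore do not give the recovery for the members. Same-numbered treated EAE and EAE libraries deviated together (correlations 0.175, 0.245 and 0.238), which the labels do not explain.

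Full tests are given for Ttr, Otx2, Folr1, Kl, Foxj1, Rarres2, Tekt4 and every called member, and up to 4 genes of smallest p may be named per list of other genes. F5, Tekt2 and the Clic6 pattern were chosen after their values were seen. The members and lists were chosen with earlier results of these data known. Exon lengths and overlaps are from GENCODE M21, upstream sequences from RefSeq for GRCm38.p6.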

Additional observations from a re-analysis of the deposited data

How the results depend on the processing

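For treated EAE over EAE, 1 member was called as reported and 1 with the replicate number as a block in all 9 libraries. The count was 2 without a filter on low counts, 0 in the fit of only these 2 groups, 0 with Ttr as a covariate, 0 with the replicate block in these 2 groups alone (an alternative chosen after seeing the data), 0 to 0 over the fits that left out 1 library, and 8 by DESeq2 (Ttr, F5, Trpv4, Steap1, Otx2, Prlr, Tmem72 and Tekt4). For EAE over naive, 2 members were called as reported and 2 with the replicate block, 0 to 2 without 1 library, and 4 by DESeq2 (Trpv4, Prlr, F5 and Tekt4). Between treated EAE and naive no alternative called a member. The block changed no other call of a member. Correlations of same-numbered libraries were 0.0545, 0.114 and 0.36 for EAE with naive and -0.246, -0.121 and 0.199 for treated EAE with naive, and 5 of 9 libraries correlated best with their own number, so the block in those pairs rests on a number only.

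Direction held in 15 of 24 named tests. With Ttr as a covariate, the log2 fold change turned to 0.91 for Folr1, 0.61 for Foxj1 and 0.17 for Rarres2 in treated EAE over EAE, to -0.42 for Otx2 and -0.71 for Folr1 in EAE over naive, and to 0.19 for Folr1 and 0.11 for Kl in treated EAE over naive. Without 1 library, ranges that crossed 0 were -0.42 to 0.36 for Foxj1 and -0.30 to 0.077 for Rarres2 in treated EAE over EAE, -0.44 to 2.25 for Otx2, -0.62 to 0.16 for Foxj1 and -0.25 to 0.070 for Rarres2 in EAE over naive, and -0.81 to 0.030 for Folr1 in treated EAE over naive. With the Ttr covariate the choroid plexus median was 0.04 and 0.26 in the first 2 comparisons, since the covariate takes up what follows Ttr. Other causes were not tested. Over all genes, DESeq2 called 688 in treated EAE over EAE and 1042 in EAE over naive, against 41 and 184 by edgeR. The fit of only 2 groups called 3 in treated EAE over EAE, and the same groups with the block 4. Without a filter 59 and 240 were called. With Ttr as a covariate 336 were called in EAE over naive. Without 1 library the counts were 4 to 38 and 2 to 261. Unscaled CPM moved none of 279 member levels by more than the group's SD, the largest change being 1.79%. Levels under 0.111 CPM are at the limit of this depth, and that limit is higher if 1 count stands for less than 1 fragment.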
